A study of Mus musculus with 8 samples.

Results

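Foxp3, Ikzf2, Ikzf4, Gpr83, Nrp1 and Lrrc32 are 6 genes by which regulatory T cells are commonly recognised, and their transcript levels are described here in 4 kinds of mouse helper T cell. They were chosen by symbol, and a probe set, the group of array probes read as 1 value, was used only where its annotation gave that symbol alone. This gave 13 probe sets for 5 of the 6 genes, among 18193 genes with a probe set. Lrrc32 was not analysed here. Where a gene had several, the 1 with the highest average level was followed, and the others served as a check.

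The study has 2 arrays for each of 4 groups. C57BL/6 mice were immunized with KLH, a foreign protein, and 7 days later their splenic CD4+CXCR5+ T cells, the Tfh group, were sorted and restimulated with anti-CD3 for 4 h before RNA was taken. No age is given for these mice. Th1, Th2 and Th17 cells were made from naive CD4 T cells of OT-II mice, C57BL/6 animals of 6 to 8 weeks whose transgenic T cell receptor recognises an ovalbumin peptide. All 3 cultures held that peptide and antigen-presenting cells for 5 days. To these were added IL-12 and anti-IL-4 for Th1, IL-4 and anti-IFNg for Th2, or IL-6, TGFb, anti-IL-4 and anti-IFNg for Th17. Source, receptor repertoire and handling therefore changed together with cell type between Tfh and the rest and cannot be told apart. The labels do not say whether the 2 arrays of a group came from separate mice or cultures, so every p here reflects array-to-array spread that may be technical.

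Regulatory T cells restrain immune responses, and Foxp3 is the transcription factor that sets up and maintains their programme. Ikzf2 and Ikzf4 encode Helios and Eos, zinc finger factors of the Ikaros family, of which Eos acts with Foxp3 to silence genes and Helios is typical of regulatory T cells from the thymus but is also made by other activated T cells. Gpr83 is a G protein-coupled receptor, Nrp1 (neuropilin 1) is a co-receptor for semaphorins and for vascular endothelial growth factor, and Lrrc32 encodes Garp, which holds latent TGFb on the cell surface. CXCR5, the receptor by which cells enter the B cell follicle, is carried by Tfh cells and also by follicular regulatory T cells, which express Foxp3, and the labels name no marker that would separate them in the sort.

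The results turn most on Foxp3. The 250 bases before its first start site in RefSeq (build GRCm38.p6, chrX:7579426-7579675, plus strand) are shown for that reason, 5′ to 3′. Capitals mark TTTCC, farthest from the start, then TATAAA and, next to the start, TGTGG.
Foxp3 promoter: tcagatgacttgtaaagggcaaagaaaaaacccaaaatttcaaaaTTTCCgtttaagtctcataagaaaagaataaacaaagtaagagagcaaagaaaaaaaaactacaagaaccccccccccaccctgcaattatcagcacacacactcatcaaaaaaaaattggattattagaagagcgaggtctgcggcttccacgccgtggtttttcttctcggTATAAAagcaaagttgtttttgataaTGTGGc
TATAAA is the core of the TATA box and lay at positions -32 to -27 from the start. TTTCC, at -205 to -201, is GGAAA on the minus strand, the core bound by NFAT factors, and TGTGG, at -6 to -2, is the core bound by Runx factors, and these words did not overlap one another. On either strand TATAAA was present in 12.4% of 32851 promoter windows of this length, GGAAA in 55.6% and TGTGG in 49.3%, so each is a match of letters and not a shown site. Windows were found for 3 of the 6 genes.

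Array values are on the log2 scale and every difference below is a log2 difference. Levels in Tfh sat higher in general, with 65th percentiles of 6.91 and 6.98 in the Tfh arrays and 5.23 to 5.31 in the cultured arrays, and the median tested gene was 0.84 higher in Tfh. Differences were therefore also computed after quantile normalization, after shifting arrays to the same median over all probe sets, and after shifting them to the same median over the tested genes, which with the values as deposited makes 4 scalings. These moved the median gene to -0.17, 0.45 and -0.35, in that order. The Tfh arrays were also closer to each other, with 11 tested genes more than 1 apart, against 1435 for the Th1 arrays, 696 for the Th2 arrays and 1339 for the Th17 arrays. A gene was called where the limma test gave a Benjamini-Hochberg adjusted p under 0.05 over 11178 tested genes and a difference of at least 1. Levels are not compared between genes, since probes differ in how strongly they bind.

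Foxp3 was high in both Tfh arrays and near the bottom of the scale in all 6 cultured arrays. Its probe set 1420765_a_at read 10.79 and 10.73 in Tfh, against 2.37 and 2.40 in Th1, 2.38 and 2.38 in Th2, and 2.38 and 2.36 in Th17. The groups did not overlap, and every cultured value lay under 3.13, the median of all array values, so no difference between cultured types is read from them. The Th17 arrays were no exception. Their culture held TGFb, a cytokine that can induce Foxp3 in naive T cells, together with IL-6.

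The Tfh mean for Foxp3 was 10.76 ± 0.05 (SD, n = 2), which is 7.63 above that median. For the values as deposited only, this serves as a lower bound on its difference from each cultured type. Foxp3 passed the filter on low values through the Tfh arrays alone, so a call as higher in Tfh was fixed by the filter and its p is not given. The fitted differences, which set Tfh against readings at the bottom of the scale and are given only as a description, were 8.37 for Th1, 8.38 for Th2 and 8.39 for Th17. From the cultured mean the fitted difference was 8.38 as deposited and 7.66, 7.99 and 7.19 under the other 3 scalings. In a bulk sample, a larger share of cells that express a gene and more RNA per cell cannot be told apart.

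**Figure D1:**
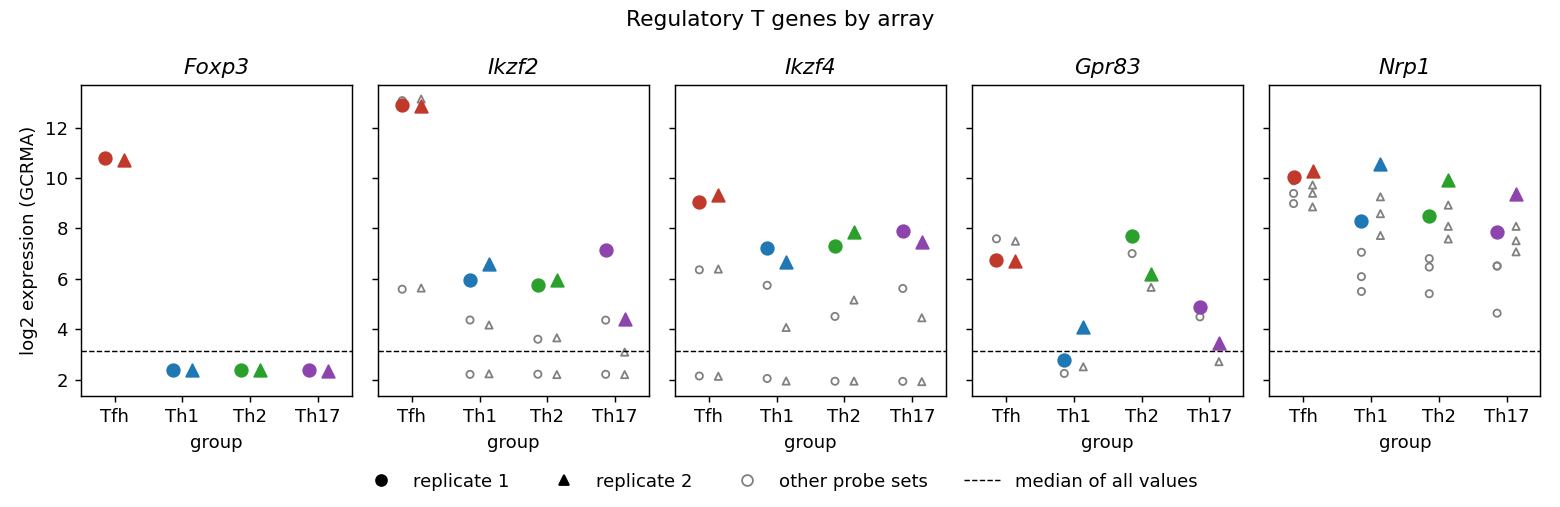
Level of each gene by array on the log2 scale, with filled symbols for the followed probe set, open symbols for its other probe sets and a dashed line at the median of all values, 3.13. Values are as deposited. Foxp3 and Ikzf2 stand apart in Tfh, Ikzf4 is higher in Tfh by a smaller step, and the followed probe sets of Gpr83 and Nrp1 overlap between groups. On this scale Gpr83 1439569_at and the other 3 Nrp1 probe sets do not overlap between Tfh and culture.

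Ikzf2, the gene for Helios, was also far higher in Tfh. Probe set 1437542_at read 12.89 and 12.84 in Tfh, against 5.95 and 6.60 in Th1, 5.74 and 5.95 in Th2, and 7.16 and 4.39 in Th17. The lowest Tfh value lay well above the highest cultured one, while the Th17 arrays held both the highest and the lowest cultured level. The difference from the cultured mean was 6.90 (SE 0.70, adjusted p = 0.000335), or 6.06 above the median gene.

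The other Ikzf2 probe sets showed the same order. Probe set 1456956_at read 13.07 and 13.13 in Tfh, against 3.09 to 4.36 in the cultured arrays, a difference of 9.22 (SE 0.34). Probe set 1421643_at read 5.59 and 5.63 in Tfh, against 2.20 to 2.23, a difference of 3.40 (SE 0.04), with all its cultured values under the median of all array values, so that it too passed the filter through Tfh alone. The size of the difference thus depended on the probe set. All 3 Ikzf2 probe sets were called higher against each cultured type and against their mean, a call that for 1421643_at the filter fixed. Against single types the followed probe set differed by 6.58 for Th1, 7.02 for Th2 and 7.09 for Th17, each with SE 0.85.

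Ikzf4, the gene for Eos, was higher in Tfh by a smaller step. Probe set 1457342_at read 9.06 and 9.31 in Tfh, against 7.22 and 6.68 in Th1, 7.28 and 7.84 in Th2, and 7.88 and 7.47 in Th17. No cultured array reached the Tfh values. The difference from the cultured mean was 1.79 (SE 0.25, adjusted p = 0.00123), of which 0.95 remained above the median gene. After quantile normalization it was 0.48 (adjusted p = 0.131) and after the shift to the median over tested genes 0.60 (adjusted p = 0.0792), so the call depended on the scaling.

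Probe set 1438274_at of Ikzf4 read 6.36 and 6.39 in Tfh, against 4.07 to 5.74 in the cultured arrays. It was called against the cultured mean (1.45, SE 0.53, adjusted p = 0.0469) but against no single type. Its difference from the cultured mean lay 0.45 above that of the median probe set. By rank within the array, Tfh stood at percentiles 62.2 and 62.0, inside the cultured range of 59.2 to 67.5. Probe set 1460664_at stayed under 3.13 in all 8 arrays and was not tested.

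The 3 relatives of Helios and Eos, chosen after their values were seen, were also called higher in Tfh as deposited. Ikzf1, the gene for Ikaros, read 12.99 and 12.96 in Tfh, against 11.03 to 12.44 in the cultured arrays, a difference of 1.26 (SE 0.29, adjusted p = 0.00984). Ikzf3 (Aiolos) read 11.38 and 11.41 in Tfh, against 7.24 to 10.87, a difference of 2.42 (SE 0.38, adjusted p = 0.00191), and was the only 1 of these 3 called under all 4 scalings. Ikzf5 (Pegasus) read 10.72 and 10.85 in Tfh, against 8.09 to 9.35, a difference of 1.84 (SE 0.33, adjusted p = 0.00334).

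Gpr83 followed another order, with Th2 readings around those of Tfh and lower readings in Th17 and Th1. Probe set 1423415_at read 6.73 and 6.70 in Tfh, against 2.78 and 4.09 in Th1, 7.70 and 6.17 in Th2, and 4.90 and 3.46 in Th17. The Th2 arrays lay on either side of the Tfh values. The difference from the cultured mean was 1.87 (SE 0.60, adjusted p = 0.0328), but the arrays overlapped and the call was lost under the other 3 scalings, at 0.30 (adjusted p = 0.71), 1.48 (0.0717) and 0.68 (0.344).

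By single type, Gpr83 was called higher in Tfh than in Th1 (3.28, SE 0.74, adjusted p = 0.00983) and in Th17 (2.54, SE 0.74, adjusted p = 0.0257). The difference from Th2 was -0.22 (SE 0.74, adjusted p = 0.809). Quantile normalization left 1.79 (adjusted p = 0.113) for Th1 and 0.97 (adjusted p = 0.357) for Th17. The shift over all probe sets left 2.89 (adjusted p = 0.0178) and 2.14 (adjusted p = 0.0496). After the shift over tested genes they were 2.08 (adjusted p = 0.0473) and 1.38 (adjusted p = 0.149), so both calls depended on the scaling. With the Tfh arrays averaged and counted as 1, as their closeness may warrant, the adjusted p was 0.0507 for Th1 and 0.0977 for Th17.

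The other Gpr83 probe set, 1439569_at, read 7.59 and 7.49 in Tfh, against 2.25 and 2.51 in Th1, 7.00 and 5.66 in Th2, and 4.49 and 2.71 in Th17. Here both Tfh arrays lay above both Th2 arrays as deposited, but the difference of 1.21 was not called (adjusted p = 0.157). As deposited, the sign of the difference between Tfh and Th2 thus depended on the probe set. By rank within the array, the Th2 arrays stood at percentiles 74.9 and 67.2, on either side of 69.1 and 68.0 in Tfh. Probe set 1439569_at was called higher in Tfh than in Th1 (5.16) and in Th17 (3.94).

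Nrp1 was not called in any comparison of Tfh with culture by its followed probe set without a replicate block, and its cultured arrays spread widely. Probe set 1448943_at read 10.02 and 10.28 in Tfh, against 8.29 and 10.55 in Th1, 8.49 and 9.93 in Th2, and 7.84 and 9.37 in Th17. The highest value was in Th1 replicate 2, above both Tfh arrays. The difference from the cultured mean was 1.07 (SE 0.75, adjusted p = 0.242), which lies 0.23 above the median gene, and it was -0.01 after quantile normalization. Against single types it was 0.73 (adjusted p = 0.51) for Th1, 0.94 (adjusted p = 0.401) for Th2 and 1.55 (adjusted p = 0.187) for Th17. With the replicate number as a block the difference from Th17 was called (adjusted p = 0.0375).

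Of the 4 Nrp1 probe sets 1 was called against the cultured mean. Probe set 1457198_at read 9.89 and 9.72 in Tfh, against 4.64 to 7.72 in the cultured arrays, without overlap, a difference of 3.41 (SE 1.03, adjusted p = 0.0242). Probe set 1418084_at read 9.39 and 9.39 in Tfh, against 6.51 to 9.25 in the cultured arrays, a difference of 1.62 (adjusted p = 0.125). Probe set 1448944_at read 8.99 and 8.85 in Tfh, against 6.09 to 8.58, a difference of 1.79 (adjusted p = 0.0692). As deposited, both Tfh arrays thus lay above every cultured array in 3 of the 4 probe sets. By rank within each array only 1457198_at kept this order. Probe set 1418084_at stood at percentiles 82.1 and 82.0 in Tfh, against 88.3 in Th1 replicate 2. Probe set 1448944_at stood at 79.1 and 77.9 in Tfh, against 84.7 in Th1 replicate 2. In each cultured type the array numbered 2 read higher than the array numbered 1 in all 4 probe sets, by 2.26 in Th1, 1.45 in Th2 and 1.53 in Th17 for the followed one.

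Over the 5 genes measured, 4 passed as higher in Tfh against the cultured mean and none as lower, with Nrp1 not called. As deposited 43.7% of all tested genes were called higher in that comparison and 6.66% lower, so a call as higher was common among all genes. Foxp3, whose call the filter fixed, and Ikzf2 were called under all 4 scalings, as were 12.7% of tested genes. Against Th1 4 were called (background 42.8% higher and 6.16% lower), against Th2 3 (42.8% and 6.89%) and against Th17 4 (41.8% and 6.17%), none of them lower, and under all 4 scalings these were 2 in each case, again Foxp3 and Ikzf2 (background 12.4%, 13% and 11.6%). The median difference of the 5 genes from the cultured mean was 1.87, beside 0.84 over all tested genes.

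**Figure D2:**
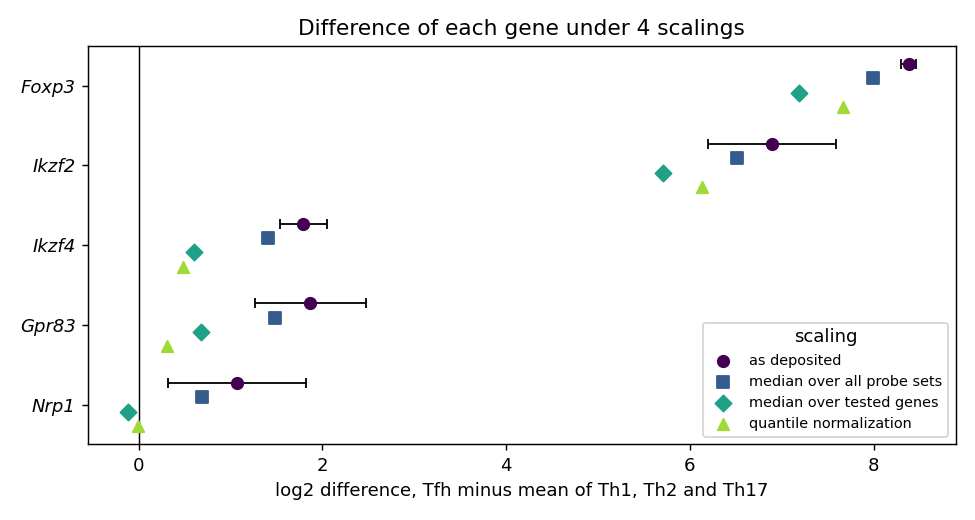
Log2 difference of each gene between Tfh and the mean of Th1, Th2 and Th17 under 4 scalings, with the SE drawn for the values as deposited. Foxp3 (7.19 to 8.38) and Ikzf2 (5.70 to 6.90) keep their distance from 0, while Nrp1 runs between -0.12 and 1.07.

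Between the cultured types none of the 5 genes was called by limma, and unadjusted p-values under 0.05 were found for 0 in Th17 against Th1, 1 in Th17 against Th2 and 1 in Th2 against Th1. The background here was low as well, at 0.0805% called higher and 0.0626% lower in Th17 against Th1, 0.188% and 0.483% in Th17 against Th2, and 0.895% and 0.349% in Th2 against Th1. The gene behind both unadjusted values was Gpr83. It differed by 3.50 (SE 0.74, adjusted p = 0.107) between Th2 and Th1 and by -2.76 (SE 0.74, adjusted p = 0.198) between Th17 and Th2, with no overlap of arrays in either pair. Probe set 1439569_at gave 3.95 and -2.73 for the same pairs. In Th17 against Th1, Th17 against Th2 and Th2 against Th1, in that order, Ikzf2 differed by -0.50, -0.07 and -0.43, Ikzf4 by 0.73, 0.11 and 0.61, and Nrp1 by -0.81, -0.61 and -0.21. For these 3 genes no order of the cultured types is therefore read.

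The Th2 arrays differed in the summed levels of markers of other cells. Th2 replicate 1, which had the highest Gpr83 value of 7.70, also had the highest summed level of the myeloid and dendritic markers (12.50, against 9.89 in Th2 replicate 2) and of the megakaryocyte and platelet markers (12.22, against 8.42). Its neutrophil markers summed to 11.87, against 5.48 in Th2 replicate 2, whereas the B cell markers went the other way, at 8.45 against 10.18. Each sum is the log2 of the markers' added linear levels. Whether these sums reflect a content of other cells, and the part of such cells in the Gpr83 values, was not tested.

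Other genes known from regulatory T cells moved in both directions. Of 24 such genes beside the 6 above, 23 had a probe set and were tested against the cultured mean, and 11 were called higher in Tfh, 2 lower and 10 not, beside 43.7% higher and 6.66% lower over all tested genes. Under all 4 scalings these counts were 7 higher, beside 12.7% of all tested genes, and 2 lower. Their median difference was 1.00, close to the 0.84 of all tested genes. The list was made with results of these data known, so the counts only describe it.

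Among those higher, Itgb8, an integrin chain that activates latent TGFb, read 10.53 and 10.77 in Tfh, against 3.33 to 3.82 in the cultured arrays, a difference of 7.16 (SE 0.17, adjusted p = 1.57e-06). Tnfrsf1b, the type 2 receptor for tumour necrosis factor, read 11.36 and 11.14 in Tfh, against 6.91 to 8.25, a difference of 3.64 (SE 0.18, adjusted p = 2.83e-05). Itgae, the CD103 integrin chain, read 8.32 and 8.35 in Tfh, against 3.24 to 6.98, a difference of 3.31 (SE 0.29, adjusted p = 0.000183). None of these overlapped between Tfh and culture.

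The following genes of the list are named after their values were seen. Nt5e, the ectoenzyme CD73 that makes adenosine, read 12.40 and 12.22 in Tfh, against 2.89 to 6.56, a difference of 8.08 (SE 0.97, adjusted p = 0.00065). Plagl1, a zinc finger factor, read 13.91 and 13.89 in Tfh, against 5.42 to 8.27, a difference of 7.29 (SE 0.83, adjusted p = 0.000525). Il12a, a cytokine chain that pairs with Ebi3 in a product of regulatory T cells, read 7.81 and 7.65 in Tfh, against 2.87 to 6.11, a difference of 3.62 (SE 0.60, adjusted p = 0.00238). Ebi3 itself differed by 0.39 (SE 0.63, adjusted p = 0.593) and was not called. Il10 differed by -1.89 (SE 1.48, adjusted p = 0.291) and was not called either. Entpd1 read 2.94 and 2.89 in Tfh, under 3.13, against 3.26 to 3.84 in the cultured arrays, and was not called.

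The 2 genes called lower in Tfh were Il2ra and Socs2. Il2ra, the CD25 chain of the interleukin 2 receptor and a surface marker of regulatory T cells that activated helper cells also carry, read 10.01 and 9.99 in Tfh, against 10.96 to 13.04 in the cultured arrays, a difference of -2.36 (SE 0.42, adjusted p = 0.00312). Socs2, a feedback inhibitor of cytokine signalling, read 8.78 and 8.83 in Tfh, against 9.46 to 11.71, a difference of -1.97 (SE 0.40, adjusted p = 0.00559). Every cultured array lay above both Tfh arrays for each of them.

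The inhibitory receptor Ctla4 and the costimulatory receptor Tnfrsf18 (GITR), both abundant on regulatory T cells, were not called. Ctla4 read 12.98 and 12.99 in Tfh, within the cultured range of 10.27 to 13.47, and differed by 0.73 (SE 0.70, adjusted p = 0.38). Tnfrsf18 read 12.77 and 12.70 in Tfh, within 11.33 to 13.24, and differed by 0.34 (SE 0.19, adjusted p = 0.152). Both signs turned under another scaling, at -0.46 for Ctla4 and -0.85 for Tnfrsf18 after the shift to the median over tested genes.

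**Figure D3:**
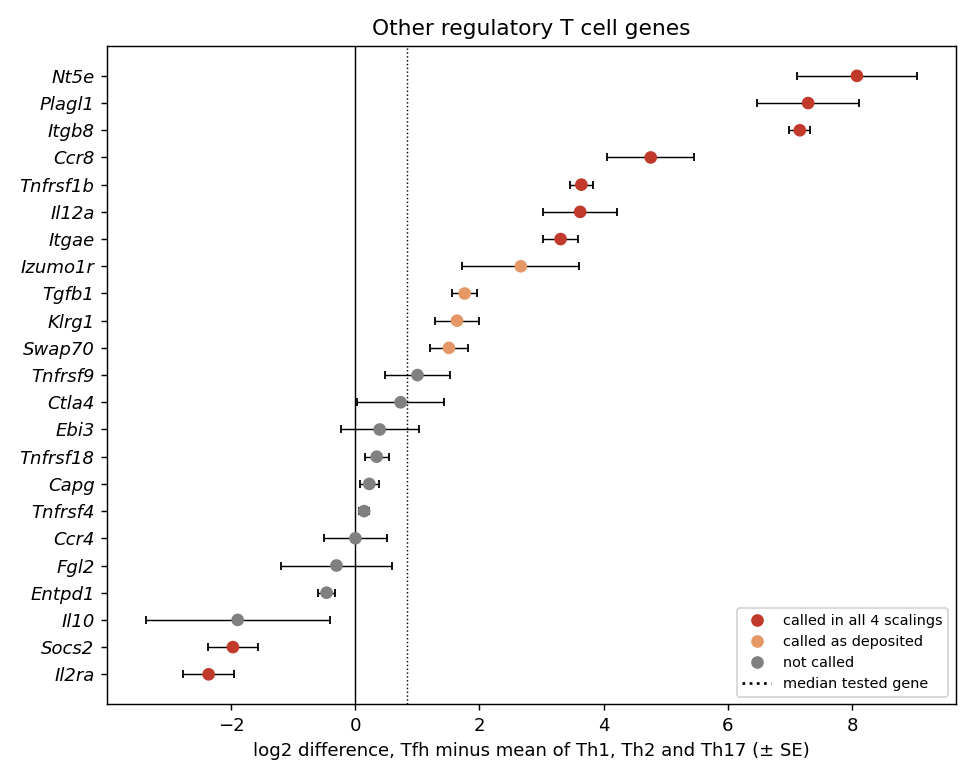
Log2 difference (± SE) between Tfh and the mean of Th1, Th2 and Th17 for 23 other regulatory T cell genes, coloured by whether each was called, with a dotted line at the median tested gene, 0.84. The differences run between -2.36 for Il2ra and 8.08 for Nt5e.

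Between cultured types 3 genes of this list were called, and they are named because they are few. Itgae was higher in Th2 than in Th1 by 3.01 (SE 0.35, adjusted p = 0.0226). Ccr8, a chemokine receptor, was higher in Th2 than in Th1 by 5.84 (SE 0.86, adjusted p = 0.0459), a call lost after quantile normalization (adjusted p = 0.0744). Tnfrsf4, the costimulatory receptor OX40, was lower in Th17 than in Th2, with a difference of -1.04 (SE 0.10, adjusted p = 0.0154), which became -0.98 after quantile normalization.

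Of 28 partners and regulators of Foxp3, 27 were tested, with 17 called higher in Tfh against the cultured mean, none lower and 10 not, beside 43.7% higher and 6.66% lower over all tested genes. Under all 4 scalings 4 were called, beside 12.7% of all tested genes, and the list's median difference was 1.45. Stat5b, which carries the interleukin 2 signal to the Foxp3 gene, read 12.38 and 12.40 in Tfh and averaged 9.27 in Th1, 8.87 in Th2 and 9.17 in Th17, a difference of 3.28 (SE 0.23, adjusted p = 9.16e-05). Creb1 (2.17, SE 0.17, adjusted p = 0.000122) and Kat5 (1.69, SE 0.15, adjusted p = 0.000198), a factor and an acetyltransferase that act at Foxp3 or on its protein, were called as deposited but not under all 4 scalings. Runx1, whose motif core is marked in the sequence above, was the 1 gene of this list called between cultured types, higher in Th2 than in Th1 by 2.66 (SE 0.28, adjusted p = 0.017).

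Of 6 genes that Foxp3 is known to repress, 3 were called higher in Tfh, none lower as deposited and none under all 4 scalings, a share of higher calls near the 43.7% of all tested genes. Pde3b, a cyclic nucleotide phosphodiesterase, was higher by 1.90 (SE 0.15, adjusted p = 0.00014) and Zap70, a T cell receptor kinase, by 1.76 (SE 0.16, adjusted p = 0.000231). Il2, the growth factor that regulatory T cells do not make, is named after its values were seen. It read 11.36 and 11.14 in Tfh, against 11.74 to 13.90 in the cultured arrays. The difference of -1.75 was not called as deposited (adjusted p = 0.0572), but the other 3 scalings gave -2.46, -2.13 and -2.94, and each of these was called.

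Garp itself was not measured here, but its pathway was. Of 15 genes for latent TGFb and its handling, 11 were tested, with 5 called higher in Tfh, 1 lower and 5 not. Under all 4 scalings 4 of the 5 higher calls held, beside 12.7% of all tested genes, and so did the lower one. The shares as deposited were near the 43.7% higher and 6.66% lower of all tested genes. Itgb8 led them. Tgfbr2, the ligand-binding receptor chain, read 12.97 and 12.98 in Tfh, against 9.60 to 11.19, a difference of 2.64 (SE 0.17, adjusted p = 7.33e-05), and Smad4, which carries the signal to the nucleus, was higher by 2.37 (SE 0.18, adjusted p = 0.000123).

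Tgfb1, the cargo of Garp, is named after its values were seen. It read 12.54 and 12.41 in Tfh, against 10.29 to 11.37 in the cultured arrays, a difference of 1.76 (SE 0.20, adjusted p = 0.000493) that was not called under all 4 scalings. The lower gene was Ltbp3, a binding protein of latent TGFb, at 3.89 and 3.75 in Tfh, against 4.75 to 5.75 in the cultured arrays, a difference of -1.47 (adjusted p = 0.0027).

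Ligands of the surface receptors were few. Of 13 ligands and partners of Nrp1, 8 were tested, 1 was called higher and 1 lower, beside 43.7% higher and 6.66% lower over all tested genes. The list's median difference was -0.02, beside 0.84 over all tested genes. Vegfa, a growth factor for which Nrp1 is a co-receptor, read 2.80 and 2.79 in Tfh, against 6.71 to 8.74 in the cultured arrays. Its Tfh values lay under the median of all array values, so it passed the filter through the cultures alone. Its call as lower was thus fixed by the filter and its p is not given. The fitted difference, given only as a description, was -4.90. Vegfb was higher by 1.50 (SE 0.19, adjusted p = 0.000847) as deposited and differed by -0.10 after quantile normalization.

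For Gpr83, Pcsk1n, the precursor of its peptide ligand PEN, and Pcsk1, an enzyme that cuts such precursors, stayed under 3.13 in all arrays. Cpe, a carboxypeptidase that trims peptide precursors, read 6.54 and 6.72 in Tfh, against 2.73 to 4.52 in the cultured arrays, a difference of 3.08 (SE 0.33, adjusted p = 0.000418).

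The labelled cell types were checked against their markers. Cxcr5, used for the sort, read 11.25 and 11.20 in Tfh, against 3.34 to 8.12 in the cultured arrays, and Bcl6, the lineage factor of Tfh cells, read 11.99 and 11.91, against 6.33 to 8.62. Of 10 Tfh markers 6 were called higher in Tfh, beside 43.7% of all tested genes, and 4 under all 4 scalings, beside 12.7%. Among those 4 were Pdcd1 (2.92) and Sh2d1a (3.50). The T cell genes Cd4 and Cd3e read 11.83 to 11.84 and 12.97 to 13.03 in Tfh, against 8.61 to 9.93 and 9.71 to 10.77 in the cultured arrays, and were higher by 2.52 and 2.67.

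Among markers of other cells, those of neutrophils moved with the same contrast as Foxp3 and Ikzf2. All 8 neutrophil markers were called higher in Tfh under all 4 scalings, beside 12.7% of all tested genes. In culture, 6 of them passed 3.13 in Th2 replicate 1, 2 in Th17 replicate 1 and none in any other array. Most thus passed the filter through the Tfh arrays, so the count only describes these markers. Their summed level was 16.14 and 16.09 in Tfh, against 5.44 to 11.87 in the cultured arrays. Camp, Ltf and Lcn2, which encode granule proteins, differed by 9.20, 8.93 and 9.32 in the fit, of which Camp and Ltf stayed under 3.13 in all cultured arrays and so passed the filter through Tfh alone, and S100a8 averaged 14.89, S100a9 14.37 and Ngp 13.08 in Tfh. The T cell markers summed to 16.38 and 16.34 in Tfh, against 15.21 to 15.71 in the cultured arrays.

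The B cell markers summed to 10.51 and 10.52 in Tfh, against 6.71 to 10.18 in the cultured arrays. Of 8 tested, 5 were called higher, beside 43.7% of all tested genes, and 2 of them under all 4 scalings, beside 12.7%. Among them Cd22 differed by 3.06, Fcer2a by 3.65 and Cr2, under 3.13 in all cultured arrays, by 1.51 in the fit, while Pax5 and Blk stayed under 3.13 in Tfh. In Tfh Fcer2a read 8.60, Cd79b 8.34 and Cd79a 7.97 on average.

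The myeloid and dendritic markers summed to 11.87 and 11.82 in Tfh, inside the cultured range of 6.36 to 12.50. Of 9 tested, Lyz2 was called higher (4.71, with a Tfh mean of 11.36), and Itgax (-1.84) and Mrc1 (-2.31) lower. The background was 43.7% higher and 6.66% lower over all tested genes. With the Tfh arrays averaged the Lyz2 (adjusted p = 0.0675) and Mrc1 (0.15) calls were lost. Clec7a stood at 8.75 and Csf1r at 7.56 in Tfh. The CD8 and NK markers summed to 8.20 and 8.33 in Tfh, inside the cultured range of 7.57 to 11.93, with Cd8a higher by 1.11 as deposited, Klrk1 lower at -4.97 (a call lost with the Tfh arrays averaged, adjusted p = 0.0604), and Eomes at 7.24 and Cd8b1 at 6.75 in Tfh.

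Megakaryocyte and platelet markers summed to 6.38 and 6.24 in Tfh, under all cultured arrays (6.51 to 12.22). Itga2b lay under 3.13 in Tfh and so passed the filter through the cultures alone. Its fitted difference of -1.33 is given only as a description. Itgb3 stood at 4.85, Pf4 at 4.64 and Gp9 at 2.32 in Tfh. None of 7 endothelial markers passed 3.13 in Tfh, with Tek at 2.44, Vwf at 2.41 and Emcn at 2.30, and 1 of 3 erythroid markers did, Slc4a1 at 3.45, with Hba-a1 at 2.33 and Alas2 at 2.01. The part of neutrophils, B cells and myeloid cells in the differences of the 5 genes was not tested.

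**Figure D4:**
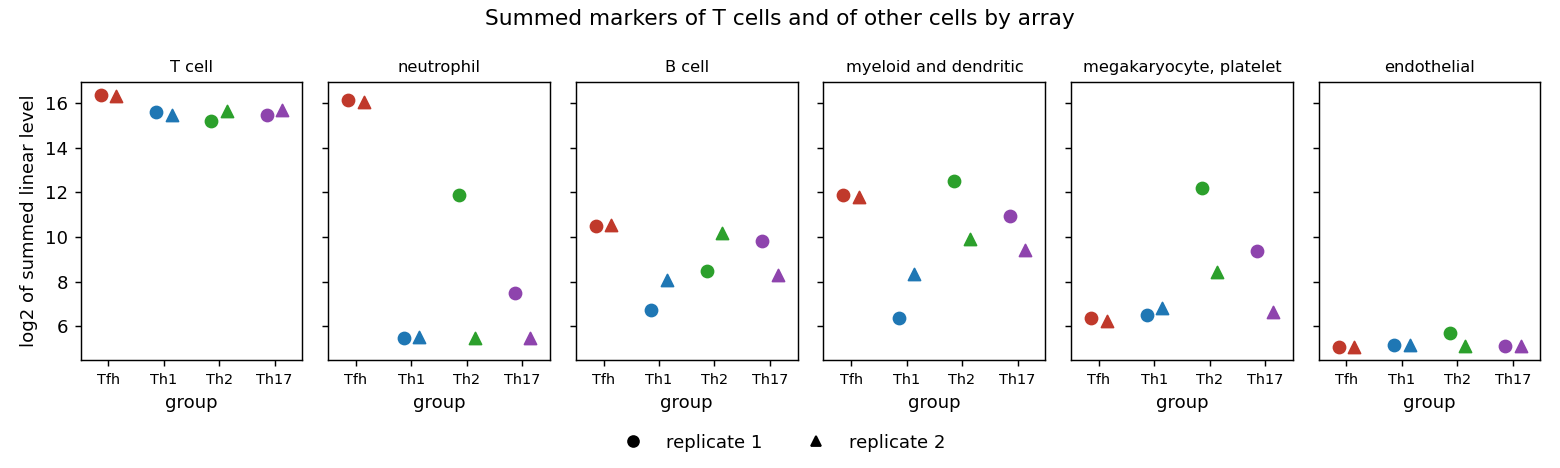
Summed level of T cell, neutrophil, B cell, myeloid and dendritic, megakaryocyte and platelet, and endothelial markers in each array, as log2 of the added linear levels. The neutrophil sum is 16.14 and 16.09 in Tfh and at most 11.87 in the cultured arrays, and Th2 replicate 1 has the highest cultured sums of neutrophil, myeloid and megakaryocyte markers.

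The genes with patterns closest to Foxp3 were found by centring each gene on its own mean over the 8 arrays and taking the mean absolute difference, over 10693 genes. The closest were St6galnac3 at 0.15, Pou6f1 at 0.17, Ltf at 0.21, Zhx2 at 0.30 and Camp at 0.31. All of these but Zhx2 stayed under 3.13 in every cultured array, as Foxp3 did, and so passed the filter through Tfh alone. Their closeness thus rests on cultured readings at the bottom of the scale. For Ikzf2 the closest genes were Nav2 at 0.51, Bambi-ps1 at 0.52, Itgb8 at 0.53, Gpr155 at 0.53 and Rsad2 at 0.54. Nav2 too stayed under 3.13 in every cultured array. Foxp3 and Ikzf2 themselves were 0.85 apart, and Ikzf4 and Nrp1 0.84, while the other pairs of the 5 genes were 1.00 to 2.74 apart. Each such value rests on the same 8 arrays and describes them only.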

How the data were processed

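Per the submitters' processing notes the authors summarized the arrays with GCRMA, whose version is not given in the sources used here, nor is the set of arrays normalized together. Values as deposited are log2 and were not normalized again. Probe sets were named through the platform annotation: 34945 of 45101 had 1 gene symbol, 932 several, 9160 none, and 64 were Affymetrix controls. The probe set with the highest mean stood for its gene, and 11178 genes were tested, those with 2 or more arrays over the 50th percentile of the whole table (3.13).

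Differences were tested two-sided with limma 3.58.1 in R 4.3.3, fitting the 4 groups together on all arrays with trended empirical Bayes moderation (4 residual and 1.78 prior degrees of freedom). The number of arrays limits the precision. Calling was tested on simulated data where the changed genes were known. Members, lists and comparisons were chosen with earlier results of these data known.

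Besides the members, the text names the called genes lowest in adjusted p in a list (3, or 2 for short lists), the 3 highest in Tfh among markers of other cells, the label check, the 5 nearest patterns, and genes it says were chosen after their values were seen. Alternatives were other scalings, filters, probe set choices and variance models, the replicate number as a block, each array left out, and the Tfh arrays averaged. Sequences are from RefSeq. Figures used Python 3.11.15 and matplotlib 3.10.9.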

Additional observations from a re-analysis of the deposited data

How the results depend on the processing

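Foxp3 (7.19 to 8.41) and Ikzf2 (3.40 to 9.22) passed as higher in Tfh against the cultured mean under each of the 20 and 22 alternatives run for them. The filter fixed this call for Foxp3, and for Ikzf2 in the alternative with probe set 1421643_at on its own (3.40). Members called numbered 2 after quantile normalization against the cultured mean, Th1, Th2 and Th17, and 2 after the shift to the median over tested genes (chosen after seeing the data, as was each probe set on its own) against the cultured mean, Th2 and Th17. Leaving out 1 array gave 2 to 4 against Th17, with the 2 without Tfh replicate 2, where Ikzf4 reached 1.39 (adjusted p = 0.0509). The Gpr83 call against the cultured mean was lost (adjusted p in parentheses) leaving out Tfh replicate 1 (0.138), Tfh replicate 2 (0.134), Th1 replicate 1 (0.0565) or Th17 replicate 2 (0.0522). Against Th1 it ended without Tfh replicate 1 (0.0514) or 2 (0.05), and against Th17 without Tfh replicate 1 (0.0989), Tfh replicate 2 (0.0959) or Th17 replicate 2 (0.116). The Ikzf1 call ended without Tfh replicate 1 (0.065) or 2 (0.0615), as did those of Klrk1 (0.0596 and 0.0605), Lyz2 (0.0694 and 0.0654) and Mrc1 (0.149 and 0.152), and the Mrc1 call also without Th1 replicate 1 (0.0703), Th1 replicate 2 (0.0708) or Th17 replicate 1 (0.074). Ikzf1 as a mean of probe sets was 0.89 and Cd8a was 0.38, with the most variable probe set Cd8a was 0.61, and without Th2 replicate 2 it was 0.98. Socs2 fell under the fold threshold as a mean of probe sets (-0.74), and so did Ltbp3 (-0.43).

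Signs turned as follows. After quantile normalization, differences from the cultured mean were -0.0061 for Nrp1, -0.10 for Vegfb, -0.11 for Cd8a and -0.17 for Tnfrsf18. Tnfrsf18 was -0.042 after the shift to the median over all probe sets. After the shift over tested genes they were -0.12 for Nrp1, -0.078 for Cd8a, -0.46 for Ctla4 and -0.85 for Tnfrsf18. Nrp1 against Th1 was -0.33 after quantile normalization and -0.47 after that shift, and against Th2 -0.15 and -0.27. Gpr83 in Tfh against Th2 was 0.50 as a mean of probe sets and 1.21 with the other probe set, also the most variable. Ikzf2 in Th17 against Th2 was 0.0066 as a mean of probe sets and 0.10 with the most variable probe set, 1456956_at. Ikzf4 in Th2 against Th1 was -0.073 with probe set 1438274_at. With 1 array left out, Nrp1 ran between -0.40 and 1.86 in Tfh against Th1, -1.94 and 0.32 in Th17 against Th1, -1.37 and 0.16 in Th17 against Th2, and -1.34 and 0.92 in Th2 against Th1. Gpr83 ran between -0.98 and 0.54 in Tfh against Th2, Ikzf2 between -1.89 and 0.88 in Th17 against Th1 and -1.46 and 1.31 in Th17 against Th2, and Ikzf4 between -0.16 and 0.39 in Th17 against Th2. The cause of these changes was not tested.

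Replicate numbers were not taken to pair the arrays, since deviations of same-numbered arrays correlated at -0.0018 to 0.27 over the 6 pairs of groups, with 0.25 for Th1 and Th17, 0.27 for Th2 and Th17, and under 0.1 for the other 4. With the replicate number as a block, 4 members were called against the cultured mean, as without it, with Foxp3 at 8.38. Against Th17 the block gave 5, with Nrp1 added (1.55, adjusted p = 0.0375). Signal near the bottom of the scale bounds what can be read: Foxp3 differences rest on cultured values under the median of all array values.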
